A study of Rattus norvegicus with 192 samples.

Results

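The pituitary of untreated adult rats was compared with 3 other tissues of the same study, the hypothalamus, the thyroid and the liver. The pituitary libraries were chosen by their labels alone: the 12 libraries labelled pituitary and vehicle control, of 192 libraries in the series. They were set against 12 hypothalamus, 12 thyroid and 9 liver libraries from vehicle groups, after leaving out the libraries with fewer than 100000 counts. The rats were wild type males of the outbred laboratory strain Crl:CD(SD), at the adult stage, and all groups used here received corn oil by oral gavage once a day for 7 days, from postnatal day 56 to 62. The corn oil is the vehicle of the study, whose other groups received the surfactant PFOS (3 mg/kg body weight per day), the antibiotic vancomycin (8 mg/kg body weight per day) or both and were not used. The labels do not say which numbers belong to the same animal, nor that the 12 libraries of a tissue came from 12 animals, so the p-values measure the spread between these libraries.

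The anterior pituitary is a mixture of hormone cells: somatotropes make growth hormone, lactotropes prolactin, thyrotropes thyrotropin, gonadotropes luteinizing and follicle-stimulating hormone, and corticotropes the precursor proopiomelanocortin. Thyrotropin and both gonadotropins share a common alpha subunit (Cga) that pairs with a hormone-specific beta subunit (Tshb, Lhb or Fshb). Peptides from the hypothalamus drive or restrain these cells through receptors on their surface, and hormones of the target glands feed back on them. The gland also holds an intermediate lobe, whose melanotropes process proopiomelanocortin further, a posterior lobe of nerve endings and glia, and supporting folliculostellate cells, vessels, fibroblasts and macrophages.

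RNA was counted by 3' bulk RNA barcoding, in which each well receives its own barcode before all wells of a plate are pooled, so a count stands for a 3' end and was not divided by gene length. Library totals ran from 303936 to 948968 counts in pituitary (median 376309.5), from 502061 to 1240091 in hypothalamus, from 299135 to 1136183 in thyroid and from 106742 to 1198377 in the livers used. Livers 6, 9 and 11, with 1473, 2028 and 21660 counts, were left out, and the shallowest library kept was liver 2. Pituitary and hypothalamus shared plate 1, and thyroid and liver shared plate 2, so that plate and tissue cannot be told apart in the comparisons with thyroid and liver. The 10 genes with most counts took 42.4% ± 3.73 (SD, n = 12) of a pituitary library and 6.74% of a hypothalamus library. Levels are therefore given as CPM, counts scaled to a common library total, after adjustment by the TMM method, which sets libraries to a common level over most genes.

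Counts of a tissue's defining genes also appeared in libraries of the other tissues, and this bears on every low value below. Gh1 was counted in all 12 hypothalamus libraries, at 1.47% ± 0.365 (SD, n = 12) of its pituitary CPM without TMM scaling, against 0.0045% in thyroid and 0.0522% in liver. The vehicle pituitary and liver libraries of the same number carry the same 6-base barcode on the 2 plates in 12 of 12 cases, and so do those of hypothalamus and thyroid. For illustration, the barcodes of 2 such pairs were:
Pituitary 7 and liver 7: ACGCGC
Pituitary 9 and liver 9: AGGCGG
In liver, Gh1 followed the pituitary library of the same barcode: 22 to 82 counts per library, 0.0246% to 0.0446% of the count in that pituitary (median 0.0323%). Across the 12 pairs, the 3 livers left out elsewhere included, the 2 counts went together (Pearson r = 0.938, permutation adjusted p = 8e-05; Spearman rho = 0.904, permutation adjusted p = 0.000133; r = 0.837 without the 2 pairs farthest from the median). Albumin (Alb), a plasma protein made by hepatocytes, did so in the other direction (r = 0.972, permutation adjusted p = 8e-05; rho = 0.954, permutation adjusted p = 2e-05; r = 0.853 without 2 pairs). It had 55 counts in pituitary 7, whose partner liver 7 had 98347, and 0 counts in pituitaries 6 and 9, whose partner livers 6 and 9 had only 56 and 75. These pairs were examined after their values had been seen, in a family of 4 relations that all passed. The relations used counts not adjusted for depth, and the way the counts passed between libraries was not tested.

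The 7 genes of the classical pituitary hormones together took 39.6% of all counts in pituitary libraries (range 31.4% to 45.2%), 0.608% in hypothalamus, 0.002% in thyroid and 0.0182% in liver. Growth hormone alone (Gh1) took 30.9% ± 5.02 (SD, n = 12), prolactin (Prl) 4.51% ± 1.01, the common alpha subunit Cga 1.93% ± 0.522 and Pomc, the corticotrope and melanotrope precursor, 0.934% ± 0.767. The label of the tissue was thus matched by Gh1, Prl and Tshb, its defining genes, in all 12 libraries.

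Sequence upstream of the hormone genes shows where letters of known pituitary binding motifs occur. POU1F1 (searched as TATNCAT) is the factor of the somatotrope, lactotrope and thyrotrope lineage, NR5A1 (AAGGTCA) marks gonadotropes and TBX19 (TCACACC) marks corticotropes and melanotropes. Of 33469 windows of 250 bases before a gene start in the RefSeq table (build GRCr8), 8.73% held the POU1F1 letters on either strand, 3.99% those of NR5A1 and 3.22% those of TBX19. Of 15 genes looked up, 12 had an entry, with 14 windows. Shown are the 250 bases before the start for the 5 hormone genes with an entry, 5' to 3' on the gene's strand, with a match in capitals. For Lhb the first of its 2 starts is shown.
Prl, chr17:38298218-38298467, minus strand: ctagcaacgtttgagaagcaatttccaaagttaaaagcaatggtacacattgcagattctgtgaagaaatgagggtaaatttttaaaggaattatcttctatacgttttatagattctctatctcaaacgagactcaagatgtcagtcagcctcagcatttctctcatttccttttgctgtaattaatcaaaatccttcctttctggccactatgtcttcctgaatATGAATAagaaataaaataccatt
Lhb, chr1:105037207-105037456, plus strand: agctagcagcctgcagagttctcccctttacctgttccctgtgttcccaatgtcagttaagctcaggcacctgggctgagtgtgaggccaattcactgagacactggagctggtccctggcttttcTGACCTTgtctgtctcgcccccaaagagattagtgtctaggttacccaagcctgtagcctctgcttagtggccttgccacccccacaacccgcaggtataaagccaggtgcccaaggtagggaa
Pomc, chr6:32659103-32659352, plus strand: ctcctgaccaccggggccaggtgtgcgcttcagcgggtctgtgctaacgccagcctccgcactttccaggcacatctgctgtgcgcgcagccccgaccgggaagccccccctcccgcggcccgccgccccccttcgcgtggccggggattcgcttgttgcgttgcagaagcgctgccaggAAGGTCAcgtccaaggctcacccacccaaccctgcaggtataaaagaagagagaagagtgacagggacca
Cga, chr5:54283090-54283339, plus strand: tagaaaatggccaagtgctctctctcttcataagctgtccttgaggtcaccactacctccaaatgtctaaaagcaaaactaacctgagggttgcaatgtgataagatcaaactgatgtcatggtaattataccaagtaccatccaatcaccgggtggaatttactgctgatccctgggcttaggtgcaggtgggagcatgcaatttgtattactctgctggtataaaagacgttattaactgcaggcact
Tshb, chr2:192918055-192918304, minus strand: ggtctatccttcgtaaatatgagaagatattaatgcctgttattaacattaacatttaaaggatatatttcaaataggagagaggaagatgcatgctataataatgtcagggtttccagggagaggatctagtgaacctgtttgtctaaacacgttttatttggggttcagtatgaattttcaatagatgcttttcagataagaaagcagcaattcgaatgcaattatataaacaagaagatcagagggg
The Prl window held POU1F1 letters that begin 24 bases before the start, the Lhb window NR5A1 letters at 124 bases and the Pomc window NR5A1 letters at 70 bases. None of the letters searched occurred in the Cga and Tshb windows or at the second Lhb start. TBX19 letters occurred in none of the 14 windows, that of Pomc included. Letters of PITX (TAATCC), also searched, were in 6.34% of all windows and in none of these 14. Among the other genes described below, the window of Hepacam2 held POU1F1 letters and that of Chia NR5A1 letters. A match is a description of these letters and not evidence of binding.

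Gh1 was at 210500 CPM in the lowest pituitary library, 340500 in the median and 415200 in the highest. Hypothalamus libraries ranged from 2684 to 5717 CPM, thyroid from 0 to 61.0 and liver from 94.8 to 586. All 12 pituitary libraries lay above every library of the other tissues. The log2 fold change was 6.67 ± 0.38 (SE) against hypothalamus (adjusted p = 7.94e-20, edgeR's quasi-likelihood test with Benjamini-Hochberg adjustment over all genes tested), 14.7 ± 0.534 against thyroid and 10.5 ± 0.526 against liver. The fold against hypothalamus is set by the Gh1 counts described above, whose source was not tested.

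Prl ranged over 32340, 46950 and 62910 CPM (lowest, median, highest) in pituitary and averaged 174.5 CPM in hypothalamus, a log2 difference of 8.10 ± 0.17 (adjusted p = 3.7e-46). In all 12 thyroid libraries together it had 3 counts, and in the 9 livers 35. No library of another tissue came near the pituitary range.

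Among the glycoprotein hormone subunits, Cga ran from 13860 through 20290 to 29780 CPM in pituitary, with a mean of 480.9 CPM in hypothalamus (log2 5.42 ± 0.23, adjusted p = 7.39e-27). Tshb, the beta subunit of thyrotropin, ran from 3612 through 7053 to 14050 CPM, against a mean of 233.6 CPM in hypothalamus (log2 5.03 ± 0.29, adjusted p = 7.42e-20). Lhb, of luteinizing hormone, ran from 4009 through 6701 to 8314 CPM against 95.3 in hypothalamus (log2 6.07 ± 0.15, adjusted p = 4.44e-43). Of the 3, Lhb was the most even between pituitary libraries, with an SD of 20.8% of its mean, against 26.6% for Cga and 41.1% for Tshb. Fshb, of follicle-stimulating hormone, ran from 248.7 through 447.5 to 1489 CPM, against 2.05 in hypothalamus (log2 7.77 ± 0.34, adjusted p = 2.56e-21). It had no count in the 9 livers and was at least 367-fold higher in pituitary when set against 3 counts over the whole liver group. Thyroid libraries held 5 counts of Tshb, 4 of Lhb, 4 of Cga and 1 of Fshb in all.

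Pomc varied most among the hormones, from 1587 CPM in pituitary 1 through a median of 8106 to 33420 in pituitary 7. The lowest of these still exceeded the highest hypothalamus library, 233.9 CPM (log2 6.35 ± 0.35, adjusted p = 4.76e-20). All 7 hormone genes were higher in pituitary than in each other tissue. This count stands beside a background of 10.6% of the genes tested. The 7 were listed as genes that define the gland, so the count says nothing beyond their values.

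**Figure D1:**
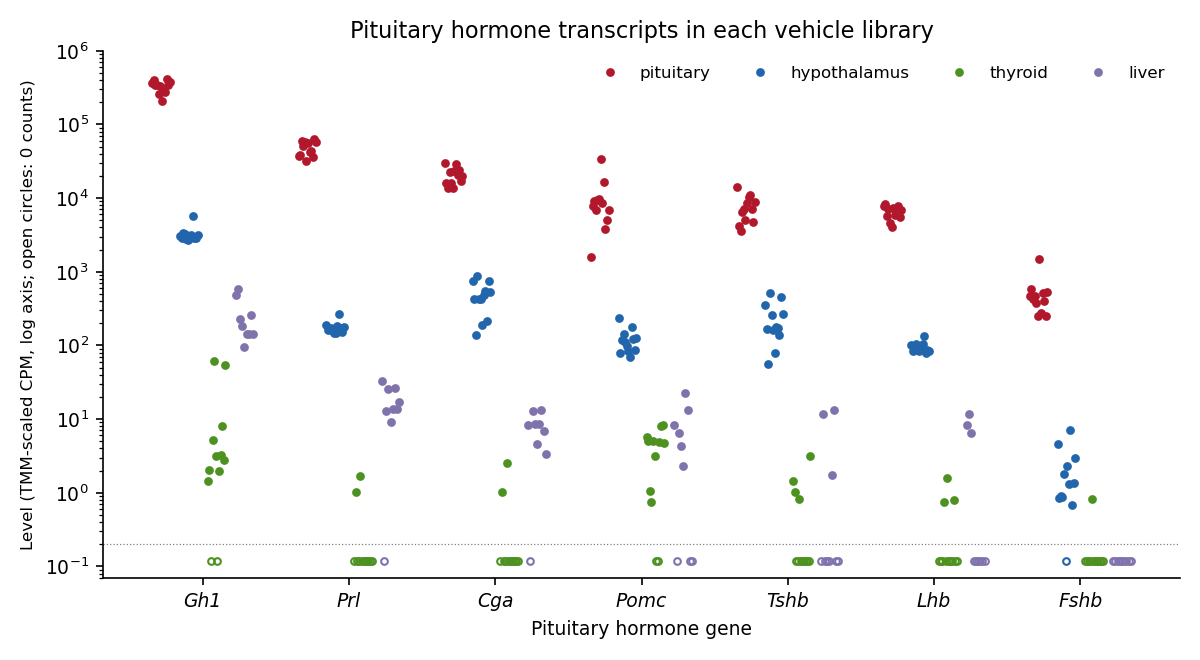
Level of 7 pituitary hormone genes in each vehicle library, as TMM-scaled CPM on a log axis; each point is 1 library (12 pituitary, 12 hypothalamus, 12 thyroid, 9 liver), and open circles below the dotted line mark libraries with 0 counts. Pituitary points lie above all others for every gene, Gh1 is counted in all 12 hypothalamus libraries at 2684 to 5717 CPM, and Fshb has no count in liver.

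Across all genes the pituitary differed widely from each tissue. Of 6560 genes with enough counts to test, 2028 (30.9%) were higher and 2449 (37.3%) lower in pituitary than in hypothalamus, 68.2% in all. Against thyroid 2158 (32.9%) were higher and 2322 (35.4%) lower (68.3% in all), and against liver 2602 (39.7%) were higher and 2024 (30.9%) lower (70.5% in all). A gene is called highest in pituitary where it was higher than in all 3 tissues at an adjusted p under 0.05. There were 698 such genes (10.6%), of which 56 (0.854%) were at least 4-fold higher (log2 fold change of 2) in each comparison. The mirror group, lowest in pituitary, held 507 genes (7.73%), of which 62 (0.945%) were at least 4-fold lower throughout. These splits depend on the scaling: with TMM 45.3% of the called genes were higher in pituitary against hypothalamus, 48.2% against thyroid and 56.2% against liver, and with library totals alone 20.4%, 33.7% and 76.9%. With library totals alone 354 genes were highest in pituitary, 318 of them among the 698, and 494 were lowest, 308 of them among the 507. The median log2 fold change of all tested genes was -0.09, -0.04 and 0.225 with TMM in the same order, and -0.66, -0.34 and 1.05 without.

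**Figure D2:**
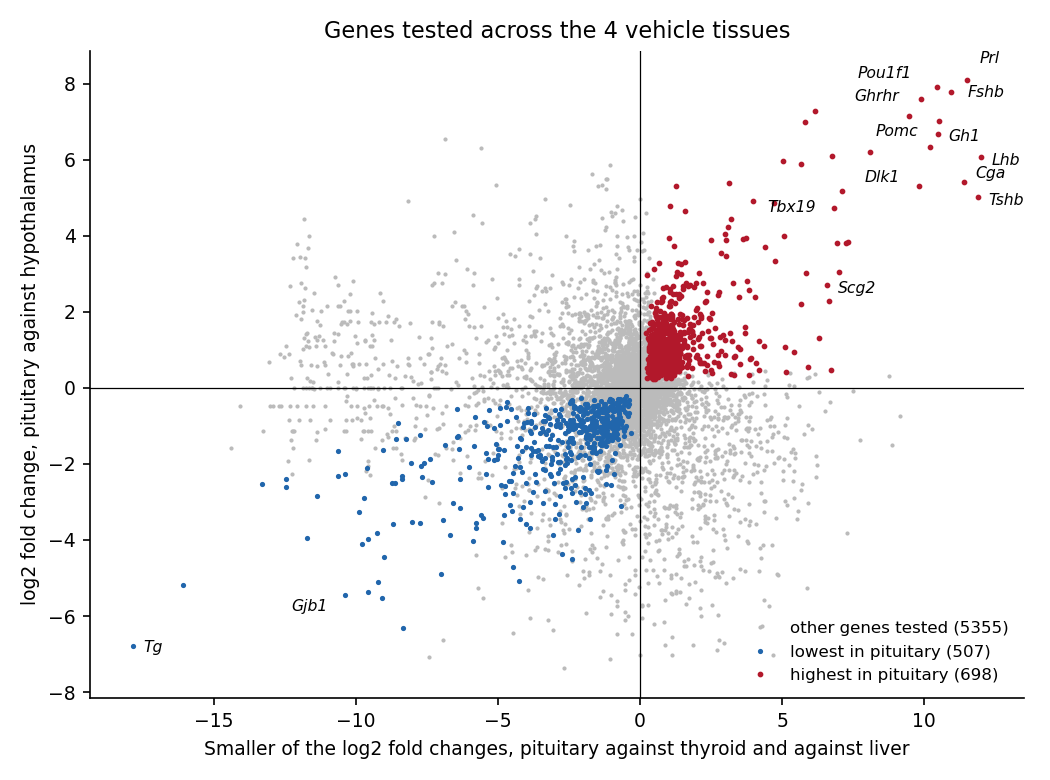
Each point is 1 of the 6560 genes tested, placed by the smaller of its log2 fold changes against thyroid and liver (x axis) and its log2 fold change against hypothalamus (y axis). The 698 genes highest in pituitary (red) include the hormone genes at the upper right, and the 507 lowest (blue) include Tg at the far left.

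Transcription factors that set up pituitary cell types formed a list of 28 genes, of which 23 were in the table and 9 had counts enough to test. Highest in pituitary were 7 of these 9, beside 10.6% of all genes tested, among them Pou1f1, Six6, Tbx19, Neurod4 and Gata2. The median log2 fold change of the 9 was 3.75 against hypothalamus, 5.46 against thyroid and 5.86 against liver, the last 5.02 with genes at 0 counts in liver placed at their bound. A gene could pass the count filter through its pituitary libraries alone, so the 9 do not stand for all 28. The count of 7 thus says little beyond the values of those genes.

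Pou1f1 ran from 288.1 through 368.6 to 430.9 CPM in pituitary, had 20 counts in the whole hypothalamus group and 1 in thyroid, and was at least 264-fold higher than in liver, where it had none. Its log2 fold change against hypothalamus was 7.93 ± 0.20 (adjusted p = 1.7e-38). With an SD of 11.9% of its mean it varied less between pituitary libraries than Gh1 (18.4%) or Tshb (41.1%), hormone genes of the lineage it specifies.

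Tbx19, the corticotrope factor that activates Pomc, averaged 70.4 CPM ± 18.5 (SD, n = 12) in pituitary and 2.49 in hypothalamus (log2 4.73 ± 0.23). Neurod4, a bHLH factor, averaged 35.3 ± 6.42 CPM and was under 1 CPM on average in each other tissue. In both genes the pituitary libraries lay above every hypothalamus library.

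Six6, a homeobox factor of the developing eye, hypothalamus and pituitary, ran from 28.3 through 68.8 to 335 CPM in pituitary, and its upper end is a single library, pituitary 7. Gata2, a factor of thyrotropes and gonadotropes, averaged 21.9 CPM. It was also counted in thyroid, at 12.0 CPM, a log2 fold change of 0.83 ± 0.25 (adjusted p = 0.00284). Sox9, a factor of stem and glial cells, went the other way in 2 comparisons: at 40.7 CPM it was lower than in hypothalamus (log2 -4.39 ± 0.26) and thyroid (log2 -5.78 ± 0.26) and higher than in liver (log2 1.26 ± 0.45). Nr5a1, the gonadotrope factor, averaged 0.382 CPM in pituitary and had no count in the other tissues, too few for a test.

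Receptors through which the hypothalamus controls the gland were counted at low levels. Of 15 listed, 4 could be tested. Of these 4, 3 were highest in pituitary, but a gene with hardly a count elsewhere passes the count filter through the pituitary libraries alone, so the count says nothing beyond the values of the 3 genes. Ghrhr, the receptor for growth hormone-releasing hormone on somatotropes, ran from 99.1 through 155.4 to 234.6 CPM against a mean of 0.608 in hypothalamus (log2 7.59 ± 0.24, adjusted p = 4.17e-29), had no count in thyroid or liver and was at least 595-fold and 117-fold higher there. Gnrhr, the gonadotropin-releasing hormone receptor of gonadotropes, ran from 35.8 through 65.4 to 129 CPM against a mean of 0.761 (log2 6.21 ± 0.27, adjusted p = 6.04e-28). Drd2, the dopamine receptor that restrains lactotropes, averaged 32.5 ± 4.86 CPM against 3.68 (log2 3.06 ± 0.21, adjusted p = 8.29e-19). All pituitary libraries exceeded all other libraries in each of these 3 genes.

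The fourth gene tested, Adcyap1r1, the receptor for the peptide PACAP, was lower than in hypothalamus (16.03 against 59.1 CPM, log2 -1.89 ± 0.20) and higher than in thyroid and liver. Trhr, the thyrotropin-releasing hormone receptor, averaged 20.7 CPM in pituitary and 6.12 in hypothalamus, and Avpr1b, the vasopressin receptor of corticotropes, 8.13 and 0.0541 CPM, but both fell under the count filter and have no test. Ghsr, the ghrelin receptor, had 0 counts in the 12 pituitary libraries, which allows up to 0.579 CPM over the group.

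Feedback was represented by 17 receptors for steroid and thyroid hormones and deiodinases, of which 6 could be tested and 1 was highest in pituitary. The share over all genes tested was 10.6%. Dio2, the deiodinase that makes active T3 from T4 inside thyrotropes, ran from 18.01 through 39.9 to 72.1 CPM against a mean of 17.01 in hypothalamus (log2 1.24 ± 0.19, adjusted p = 4.74e-08), 2.12 in thyroid and 0.193 in liver. The hypothalamus range overlapped, with 9 of 12 pituitary libraries above all of it. Thrb, the thyroid hormone receptor of the pituitary feedback loop, averaged 29.2 CPM and was higher than in hypothalamus (log2 2.26 ± 0.22) and thyroid (log2 2.53 ± 0.24). Against liver its log2 difference was 0.28 ± 0.27 (adjusted p = 0.35). Thra, the other receptor gene, was lower than in hypothalamus (16.7 against 48.4 CPM, log2 -1.49 ± 0.22). Dio1 was lower than in thyroid (7.86 against 569 CPM) and liver (248 CPM). The glucocorticoid receptor gene Nr3c1, at 30.1 CPM, was lower than in liver and differed from hypothalamus by log2 0.33 ± 0.20 (adjusted p = 0.132).

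Granule proteins and the enzymes that cut prohormones were listed as 19 genes, of which 14 were tested and 10 were highest in pituitary, beside 10.6% of all genes: Chgb, Scg2, Scg3, Scg5, Pcsk1, Cpe, Pam, Nucb2, Ptprn and Ptprn2. For Cpe and Ptprn2 against hypothalamus and Nucb2 against thyroid, where the log2 fold changes were 0.34, 0.36 and 0.26, the direction turned over with library totals in place of TMM scaling. With those totals 6 of the 10 were still highest in pituitary. The median log2 fold change of the list was 1.40 against hypothalamus, 2.38 against thyroid and 6.35 against liver.

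Secretogranin II (Scg2), a core granule protein, ran from 3544 through 4605 to 6032 CPM in pituitary, against means of 973 in hypothalamus (log2 2.28 ± 0.12, adjusted p = 4.95e-26), 46.9 in thyroid and 1.56 in liver. Chromogranin B (Chgb) averaged 1592 ± 181 CPM against 156.5 in hypothalamus (log2 3.34 ± 0.12). Scg5, the chaperone of prohormone convertase 2, averaged 1184 CPM against 474 (log2 1.32 ± 0.10). None of these 3 genes overlapped with another tissue.

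Pcsk1, the convertase that cuts proopiomelanocortin to ACTH, averaged 77.6 ± 25.5 CPM against 14.5 in hypothalamus and 29.8 in thyroid (log2 2.38 ± 0.17 and 1.36 ± 0.16). Pam, which amidates peptides, averaged 233 CPM against 74.5 and 82.8. Chromogranin A (Chga) and Pcsk2 did not follow: both were higher than in hypothalamus and liver, but lower than in thyroid, at 297 against 1140 CPM for Chga (log2 -1.90 ± 0.28) and 124 against 190 CPM for Pcsk2 (log2 -0.59 ± 0.14). The thyroid libraries also held Calca, the C cell hormone gene, at 5763 CPM, and Pth, the parathyroid hormone gene, at 39200 CPM, both from endocrine cells with granules of their own. The part of these cells in the thyroid values was not tested.

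Resp18, which encodes a protein of endocrine granules, was not on a list. It ran from 8222 through 10610 to 12980 CPM in pituitary against 1997 in hypothalamus, 929 in thyroid and 66.8 in liver (log2 2.39 ± 0.11, 3.5 ± 0.12 and 7.31 ± 0.18, adjusted p at most 5.23e-28). Its SD was 12.8% of its mean, near that of Scg2 (13.3%).

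Of 16 genes of the exocytosis machinery listed and 10 tested, 2 were highest in pituitary, beside 10.6% of all genes tested. Against hypothalamus 3 were higher and 6 lower, beside 30.9% and 37.3%, so the count of higher genes is at the background. The 2 highest in pituitary were Rab3b (269 ± 62.1 CPM against 128 in hypothalamus, log2 1.09 ± 0.12) and Rab27a (161 ± 22.1 against 13.9, log2 3.48 ± 0.15), small GTPases that dock granules. Snap25, a SNARE protein of neurons and endocrine cells, averaged 277 CPM against 738 in hypothalamus (log2 -1.42 ± 0.11), and Vamp2 57.0 against 260 (log2 -2.19 ± 0.14). Syt4, a synaptotagmin, differed from hypothalamus by log2 0.21 ± 0.12 (adjusted p = 0.108), a value that turned below 0 without TMM scaling.

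Genes of translocation into the endoplasmic reticulum, 20 listed and 18 tested, held 4 that were highest in pituitary, beside 10.6% of all genes tested. Spcs1, a signal peptidase subunit, averaged 910 ± 92.0 CPM against 405, 497 and 197 in hypothalamus, thyroid and liver. Srp14, of the signal recognition particle, averaged 833 CPM and Ostc, of the oligosaccharyltransferase, 553 CPM. Dad1, also of that complex, averaged 1629 CPM, with a log2 fold change against thyroid of 0.20 ± 0.09 (adjusted p = 0.044) whose direction turned without TMM scaling. Of the 18, 15 were higher than in hypothalamus, against 30.9% of all genes tested, and the list's median log2 fold change there was 1.33. Against thyroid 6 were higher and 7 lower (median 0.0042), shares close to those of all genes, and against liver 11 were higher and 6 lower (median 0.605).

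Folding and stress genes of the endoplasmic reticulum, all 20 tested, gave a sharper order. Higher than in hypothalamus were 16 of 20, against 30.9% of all genes tested. Lower than in thyroid were 15 of 20, against 35.4%. Hspa5 (BiP), the main chaperone, averaged 1959 ± 289 CPM, between 492.9 in hypothalamus and 3716 in thyroid (log2 1.99 ± 0.12 and -0.93 ± 0.12), and Calr, calreticulin, 454 CPM between 284 and 1540. Only Ddit3, a stress-induced transcription factor, was called highest (125 CPM against 94.2, 84.5 and 33.5), and its direction against hypothalamus turned without TMM scaling.

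Of 22 cytosolic ribosomal proteins listed, 21 were tested and Rpl3, Rpl4 and Rps6 were highest in pituitary, beside 10.6% of all genes tested. Rpl3 averaged 4442 ± 261 CPM against 1959, 2329 and 1124 in hypothalamus, thyroid and liver, with no overlap (log2 1.18 ± 0.11, 0.93 ± 0.11 and 1.96 ± 0.13). For Rpl4 against hypothalamus and Rps6 against thyroid (log2 0.56 and 0.28) the direction turned without TMM scaling. Over the list 10 were higher than in hypothalamus and 11 lower than in thyroid, beside 30.9% and 35.4% of all genes tested. Ribosomal protein genes have many processed copies in the genome, and reads shared with such a copy may have been counted elsewhere. Oaz1, ornithine decarboxylase antizyme, was among the 12 highest-in-pituitary genes of largest mean CPM, at 2480 CPM and log2 fold changes of 0.65 to 0.82.

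**Figure D3:**
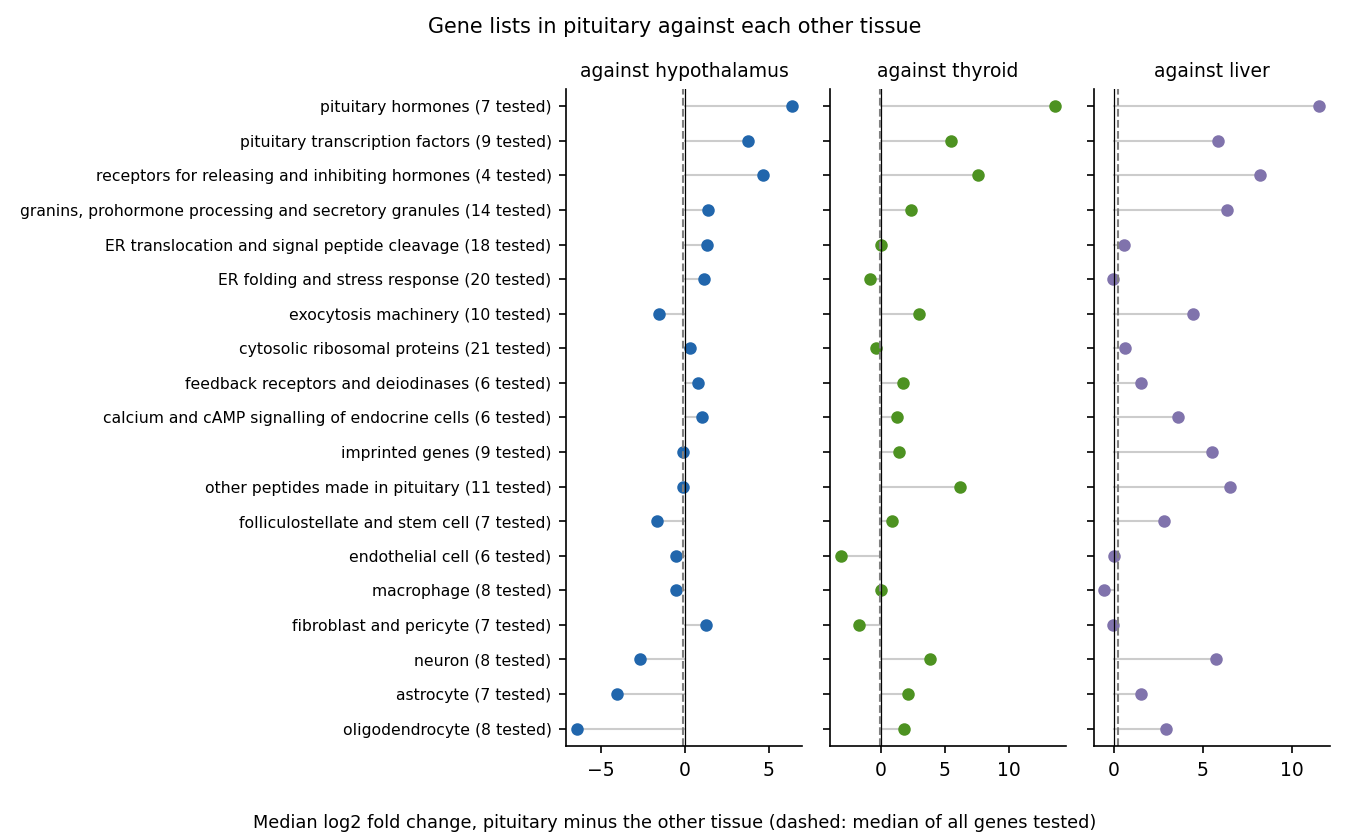
Median log2 fold change of 19 gene lists, pituitary minus hypothalamus, thyroid or liver, over the members tested (number in brackets); the dashed lines give the median of all 6560 genes. Hormone, receptor, transcription factor and granule lists lie to the right in all 3 panels. So do feedback receptors, calcium and cAMP signalling and, barely against thyroid, endoplasmic reticulum translocation. The count filter partly sets this place for hormones, receptors and transcription factors tested through their pituitary counts. Neuron, astrocyte and oligodendrocyte lists lie to the left against hypothalamus only. The same holds for exocytosis and folliculostellate genes and, narrowly, imprinted genes and other peptides. Fitted values of genes with 0 counts in a tissue are included.

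Other peptides known from the gland behaved unevenly. Of 15 listed and 11 tested, Nmb (neuromedin B, 33.6 ± 18.6 CPM) and Nmu (neuromedin U, 47.7 ± 19.1 CPM) were highest in pituitary, against 5.28 and 8.69 CPM in hypothalamus. Of all genes tested, 10.6% were highest. Gal, galanin, was lower than in hypothalamus (125 against 427 CPM, log2 -1.79 ± 0.15), and so were Penk, the enkephalin precursor (138 against 214 CPM), and Pdyn, the dynorphin precursor (37.1 against 63.8 CPM). Cartpt averaged 430 ± 206 CPM against 343 in hypothalamus (log2 0.32 ± 0.18, adjusted p = 0.105).

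Among 17 imprinted genes, 9 were tested and 2 were highest in pituitary, beside 10.6% of all genes tested. Dlk1, a membrane protein related to the ligands of Notch, ran from 370 through 567 to 773 CPM against 13.7 in hypothalamus (log2 5.30 ± 0.16, adjusted p = 2.19e-35), had 5 counts in thyroid and was at least 408-fold higher than in liver. Gnas, which encodes the stimulatory G protein downstream of the growth hormone-releasing hormone receptor, averaged 1984 ± 243 CPM against 874, 857 and 354 (log2 1.18 ± 0.12, 1.21 ± 0.12 and 2.52 ± 0.15). Ndn was lower than in hypothalamus (38.9 against 376 CPM, log2 -3.25 ± 0.12). Peg3 stood at 329 and 322 CPM in pituitary and hypothalamus, a log2 difference of 0.02 ± 0.12 (adjusted p = 0.877) that became -0.56 without TMM scaling.

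In the list of calcium and cAMP signalling genes (18 listed, 6 tested) Gnas and Rasd1, a glucocorticoid-induced Ras protein, were highest. The share over all genes tested was 10.6%. Rasd1 ran from 76.7 through 156 to 277 CPM against 23.7 in hypothalamus (log2 2.82 ± 0.17). Crem, a cAMP-responsive factor, was higher than in hypothalamus and thyroid (143 against 35.7 and 66.7 CPM) and differed from liver by log2 0.30 ± 0.20 (adjusted p = 0.179).

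Ranked by the smallest of the 3 fold changes, the 12 leading genes were Prl, Pou1f1, Fshb, Ghrhr, Hepacam2, Chia, Gh1, Pomc, Gnrhr, Dapl1, Gpha2 and Lhb. Of these, 4 were on none of the hormone, factor and receptor lists. Hepacam2, a cell adhesion protein, averaged 118 ± 32.8 CPM against 0.758 in hypothalamus, with no count in thyroid or liver (at least 439-fold and 86.6-fold higher). Dapl1 averaged 179 ± 35.6 CPM against 0.878 and 2.48 in hypothalamus and thyroid and was at least 131-fold higher than in liver. Both were counted in all pituitary libraries above every other library.

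Gpha2, the alpha subunit of the hormone thyrostimulin, a relative of Cga, ran from 104 through 226 to 508 CPM, against 3.82 in hypothalamus and 2.69 in thyroid, and was at least 201-fold higher than in liver. Chia, an acidic chitinase, had the widest range of the 12 by ratio, from 7.43 through 239 to 565 CPM. The lowest of these, pituitary 1, rests on 3 counts, and so does the width of the range. Its value lay above every hypothalamus library (highest 4.16 CPM, on 7 counts), and Chia had no count in thyroid or liver. Oacyl, on the corticotrope and melanotrope list, was also highest in pituitary (60.4 ± 29.4 CPM against 1.497 in hypothalamus), although 1 pituitary library had no count of it.

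Further genes of the 56 at least 4-fold higher were picked out after their values were seen. Htatsf1 averaged 843.9 ± 97.5 CPM against 28.8, 30.4 and 27.5 CPM in hypothalamus, thyroid and liver, an even level in the 3 other tissues. Rpl39l, a copy of the ribosomal protein gene Rpl39, averaged 225.1 ± 43.1 CPM against 3.68 and 4.93 in hypothalamus and thyroid. Both have close copies elsewhere in the genome, so reads assigned to them are uncertain. Abcc8, the sulphonylurea receptor of ATP-sensitive potassium channels, averaged 50.5 CPM against 3.24, 3.54 and 3.76, and Pcsk6, a proprotein convertase, 50.5 CPM against 3.31 in hypothalamus. Maged2 averaged 390.2 CPM against 81.7 and Serpini1, neuroserpin, 361.0 CPM against 77.5 in hypothalamus.

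At the other end, Tg, Gjb1, Pth, Plpp3, Cbs and Id2 were the 6 genes lowest in pituitary by the least negative of their fold changes. Tg, thyroglobulin, had 0 counts in the 12 pituitary libraries, against 39830 CPM in thyroid, 2001 in liver and 18.5 in hypothalamus. Pth had 2 counts in pituitary against 306 in hypothalamus. The hypothalamus counts of Tg and Pth rose with those of the thyroid library of the same barcode (r = 0.835 and 0.92, rho = 0.863 and 0.956, permutation adjusted p at most 0.00071 over the 12 pairs), and the liver counts shared a plate with thyroid. The counts were not adjusted for depth, and library 11 was the shallowest in both hypothalamus and thyroid (502061 and 299135 counts). Shared depth and shared barcode cannot be told apart in these 2 relations. Pituitary carries barcodes of liver rather than of thyroid, and the place of Tg and Pth among the lowest rests on their hypothalamus and liver counts.

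The other 4 genes were not examined by barcode, and the source of their counts in the other tissues was not tested. Gjb1, connexin 32, averaged 0.924 CPM in pituitary against 49.1 in hypothalamus, 517 in thyroid and 1495 in liver (log2 -5.44 ± 0.32, -8.84 ± 0.25 and -10.4 ± 0.241). Cbs, cystathionine beta-synthase, averaged 2.73 CPM against 90.2, 32.4 and 390, Plpp3, a lipid phosphatase, 14.7 against 254, 433 and 170, and Id2, an inhibitor of bHLH factors, 2.19 against 30.7, 147 and 26.4. In each of the 4 the adjusted p was at most 8.49e-11 in all 3 comparisons.

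Markers of cells other than the hormone producers were also counted. In bulk RNA a lower value can mean fewer cells of a type or less RNA per cell, which cannot be told apart. None of the 7 folliculostellate and stem cell genes tested was highest in pituitary, and 6 were lower than in hypothalamus. Of all genes tested, 10.6% were highest and 37.3% lower than in hypothalamus. S100b, the classical folliculostellate marker that astrocytes also express, averaged 115 CPM against 2587 in hypothalamus and 5.96 in thyroid, and Anxa1, annexin 1, 73.0 CPM against 25.1 in hypothalamus (log2 1.52 ± 0.17) and 123 in thyroid. Of the posterior lobe glia (pituicyte) list only 1 gene had counts enough to test, and the list summed to at most 0.00161% of a pituitary library.

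Endothelial genes were low against thyroid: all 6 tested were lower, against 35.4% of all genes tested. Against hypothalamus 3 were higher and 3 lower, beside 30.9% and 37.3% of all genes tested. Against liver 2 were higher and 3 lower, beside 39.7% and 30.9%. Pecam1 (7.81 CPM) and Flt1 (7.15 CPM) were lowest in pituitary. Emcn and Plvap, of fenestrated and sinusoidal vessels, were higher than in hypothalamus (26.4 against 10.8 CPM and 15.9 against 4.36 CPM). Kdr at 35.4 CPM was higher than in hypothalamus by log2 0.34 ± 0.15, which turned below 0 without TMM scaling. All 7 fibroblast and pericyte genes tested were lower than in thyroid, and 4 were higher than in hypothalamus. Over all genes tested these shares were 35.4% and 30.9%. Dcn, decorin, averaged 240 CPM against 34.8 in hypothalamus and 720 in thyroid.

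Of 8 macrophage genes tested, 2 were higher and 4 lower than in hypothalamus, beside 30.9% and 37.3% of all genes tested. Cd74, the invariant chain of class II molecules, was at 609 ± 151 CPM, above every hypothalamus library (mean 42.5, log2 3.83 ± 0.20, adjusted p = 2.99e-22) but at the thyroid level (601 CPM, log2 0.02 ± 0.17, adjusted p = 0.935). Lyz2, lysozyme, was the other higher gene, at 161.5 CPM against 58.9 (log2 1.46 ± 0.13, adjusted p = 3.53e-15). Csf1r and C1qb, which microglia also express, were lower than in hypothalamus (28.6 against 52.1 CPM and 20.1 against 34.95 CPM). Blood was present in all tissues. Hbb, a beta globin gene, was called highest in pituitary at 3316 ± 867 CPM against 1375, 1148 and 847, while Hba-a2 at 2475 CPM differed from thyroid by log2 0.03 ± 0.20 (adjusted p = 0.886). The 7 blood genes in the table summed to 0.317% to 0.847% of a pituitary library and 0.175% to 0.475% of a hypothalamus library. Globin genes are near-identical copies, so the split of reads between them is uncertain. Immediate early genes, which respond to handling and dissection, summed to 0.00299% to 0.0139% of counts in pituitary and 0.00279% to 0.00778% in hypothalamus.

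Markers of brain tissue were low in pituitary, where 37.3% of all genes tested were lower than in hypothalamus. All 8 neuron genes, 8 of 9 hypothalamic neuropeptide genes, all 7 astrocyte genes and all 8 oligodendrocyte genes tested were lower than in hypothalamus. Their sums were 0.0473%, 0.045%, 0.0288% and 0.00887% of counts in pituitary, against 0.274%, 0.412%, 0.967% and 0.832% in hypothalamus. Tubb3, a neuronal tubulin, stood at 185 against 844 CPM (log2 -2.18 ± 0.11), a larger share of its hypothalamus level than for Mbp, a myelin protein, at 22.1 against 2373 CPM (log2 -6.70 ± 0.17). All 10 hepatocyte genes tested were lower than in thyroid and liver, against 35.4% and 30.9% of all genes tested. Higher than in hypothalamus were 8 of 10, against 30.9%. Thyroid shared plate 2 with liver. Without TMM scaling it held 0.735% of the liver level of Alb, 1.09% of Apoa1, 1.52% of Ttr and 2.85% of Apoc3. The source of those thyroid counts was not tested. Of the 10, only Alb was examined by barcode, and its pituitary counts followed the liver library of the same barcode.

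Within plate 1 genes of pituitary were counted in hypothalamus and those of hypothalamus in pituitary, at shares that differed by gene. Without TMM scaling, hypothalamus libraries held on average 0.543% of the pituitary level of Prl, 1.47% of Gh1, 1.81% of Pomc, 2.22% of Lhb, 3.5% of Cga and 4.59% of Tshb. Gh1, Prl and Lhb were even across 11 of the 12 hypothalamus libraries. The exception was hypothalamus 9, with 7988 CPM of Gh1 against 3680 to 4713 in the other libraries; without it the Gh1 share was 1.36%. Tshb and Cga were uneven, at 1.09% to 10.2% and 1.02% to 6.42%, and moved together over the 12 hypothalamus libraries (r = 0.937, rho = 0.944, permutation adjusted p = 2e-05 and 4e-05; r = 0.877 without the 2 farthest libraries). Gh1 and Prl also moved together (r = 0.925, rho = 0.762, permutation adjusted p = 0.00084 and 0.00567; r = 0.633 without the 2 farthest). These 2 relations were added after their values had been seen.

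As background, Tshb and Cga are also transcribed in the pars tuberalis, a sheet of pituitary tissue on the stalk that can stay with the hypothalamus at dissection, and Pomc in neurons of the arcuate nucleus. Fshb was at 0.614% of its pituitary level, on 33 counts in all. The part of such tissue, and of exchange between barcodes, in the hypothalamus counts was not tested. In the opposite direction, pituitary libraries held 1.24% of the hypothalamus level of Avp (vasopressin), 1.64% of Oxt (oxytocin), 1.14% of Hcrt (orexin), 0.501% of Pmch (melanin-concentrating hormone) and 0.625% of Mbp. Agrp, a low gene at 30.1 CPM in hypothalamus, reached 4.92% in pituitary, but on 7 counts in all. In thyroid, on the other plate, it stood at 3.56% on 12 counts. The source of the pituitary counts of these hypothalamus genes was not tested.

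Across plates the values were lower. Thyroid libraries held 0.000575% of the pituitary level of Prl and 0.0045% of Gh1, the latter mostly from thyroids 5 and 12, with 73 and 34 of 137 counts. Tg had 0 counts in pituitary, and Calca was at 0.13% of its thyroid level there. For the factor Pou1f1, at 1.23 CPM in hypothalamus, the ratio of mean levels between pituitary and hypothalamus, here with TMM scaling, was 294. Among the 7 hormone genes this ratio ran from 32.5 for Tshb to 274 for Prl, with 102 for Gh1.

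**Figure D4:**
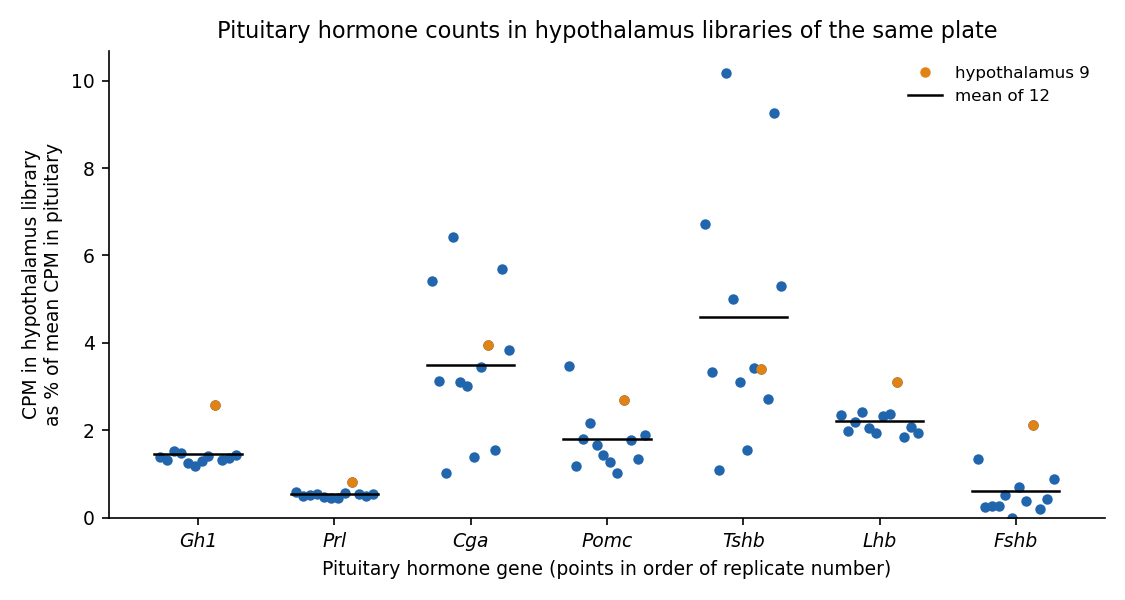
CPM of 7 pituitary hormone genes in each of the 12 hypothalamus libraries of the same plate, as a percent of the mean pituitary CPM (y axis, linear from 0); bars give the mean and hypothalamus 9 is in orange. Gh1 and Prl are even apart from hypothalamus 9, while Tshb spans 1.09% to 10.2% and Cga 1.02% to 6.42%.

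The 12 pituitary libraries were alike over most genes: the Pearson correlation of their log levels over 6560 genes ran from 0.899 to 0.949 (median 0.928), a description across genes that share libraries and depth. Pomc varied most among 1010 genes with a mean of at least 50 counts, with a biological coefficient of variation, as edgeR estimates it, of 0.696 against a median of 0.162. The next were Poldip3, Six6, Mrpl51, Hs6st1, Rps12, Ptp4a2, Rn45s, Slc3a1 and Mgp. In 5 of these 10 genes (Poldip3, Mrpl51, Hs6st1, Ptp4a2 and Slc3a1) the libraries split by barcode without overlap, a split looked for after these values were seen, which held for 13 of all 1010 genes (1.29%). In Poldip3 the 5 pituitaries whose barcode has under 5 G or C bases (numbers 1 to 5) ran from 479 to 872.6 CPM, and the 7 with 5 such bases from 69.8 to 385.5. Pomc, Six6, Rps12 and Mgp overlapped between these sets, and their highest library was pituitary 7, at 33420, 335.3, 2103 and 607.7 CPM.

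Pituitary 7 was also the deepest library and the lowest in Gh1, and it had the highest Fshb (1489 CPM against 581.9 in the next). Its Prl, Lhb and Cga lay within the range of the others. Pituitary 1 stood at the other end for Pomc, with 1587 CPM against 3765 in the next lowest, and had the highest Tshb and Cga.

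Among 7 relations examined over the 12 pituitary libraries, Tshb and Cga went together (r = 0.828, permutation adjusted p = 0.00777; rho = 0.72, permutation adjusted p = 0.0329). The relation was r = 0.706 without the 2 libraries farthest from the median, 0.823 without pituitary 7 and 0.743 within the 7 libraries with 5 G or C bases in the barcode. The other 5 libraries are too few for a value. Lhb and Fshb had r = 0.595 (permutation adjusted p = 0.0575) and rho = 0.699 (permutation adjusted p = 0.0329), with r = 0.536 without the 2 farthest and 0.65 within the 7. Lhb and Cga had r = 0.575 (permutation adjusted p = 0.059; rho = 0.587, permutation adjusted p = 0.0692), r = 0.3 without the 2 farthest and 0.711 within the 7.

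Gh1 and Pomc went in opposite directions (r = -0.748, permutation adjusted p = 0.00873; rho = -0.79, permutation adjusted p = 0.0233), with r = -0.567 without the 2 farthest libraries, -0.565 without pituitary 7 and -0.929 within the 7. Gh1 also went against the library total (r = -0.774, permutation adjusted p = 0.00873; rho = -0.524, permutation adjusted p = 0.0978), which fell to r = -0.386 without the 2 farthest and -0.538 without pituitary 7, and was -0.787 within the 7. As Gh1 takes 30.9% of counts, its share and those of other genes are not independent. Pomc and Pcsk2, the convertase of melanotropes, had r = 0.796 (permutation adjusted p = 0.00777) but rho = 0.587 (permutation adjusted p = 0.0692) and r = 0.472 without the 2 farthest, with 0.74 within the 7. Gh1 and Prl showed no relation past the threshold (r = -0.349, permutation adjusted p = 0.267; rho = -0.252, permutation adjusted p = 0.429; -0.0951 without the 2 farthest and -0.235 within the 7).

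**Figure D5:**
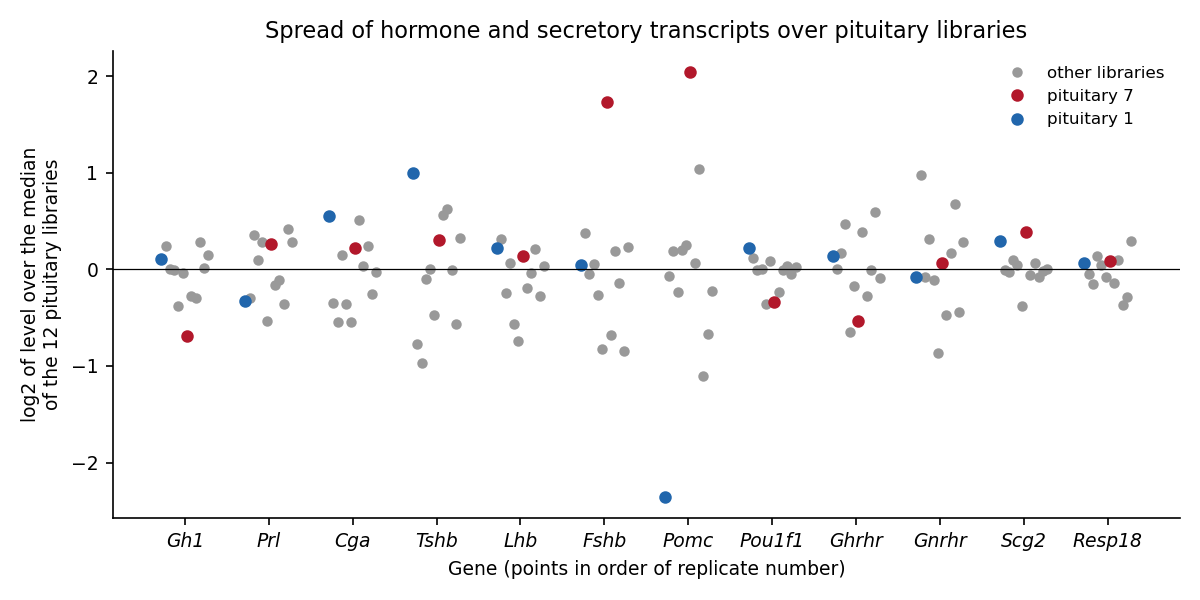
Level of 12 genes in each pituitary library as log2 of its ratio to the median of the 12 libraries (y axis); points stand in order of replicate number, pituitary 7 in red and pituitary 1 in blue. Pomc spreads from 1587 to 33420 CPM with these 2 libraries at its ends, while Pou1f1, Scg2 and Resp18 stay close to the median.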

How the data were processed

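The authors deposited 2 tables of whole-number counts per gene and library, made from poly(A) RNA with 3' bulk RNA barcoding and sequenced on an Illumina NovaSeq, per the labels' protocols. BWA 0.7.4.4 and the build rn6 are listed without a role, per the submitters' processing notes; how counts were made is not given in the sources used here. Of 17483 genes, 2131 had no count in the vehicle libraries, and 6560 passed edgeR's filter (minimum count of 10). Of the names, 15578 matched RefSeq GRCr8 directly and 1556 by synonym. The vehicle libraries of the 4 tissues entered 1 model (edgeR 4.0.16 in R 4.3.3, TMM, robust quasi-likelihood test, Benjamini-Hochberg adjustment, threshold 0.05). Depth was 106742 to 1240091 counts per library. Relations used 2-sided permutation tests with 100000 resamples (scipy 1.17.1), whose smallest possible p is 1e-05. Fold bounds set 3 counts over the whole group against a group at 0 and cover counting error only. The script was tested on simulated counts.

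The samples, members and 32 gene lists were chosen with earlier results of these data known. Named genes are the hormones, the 12 genes highest in pituitary of largest mean CPM, the 12 of largest smallest fold change and the 6 lowest by the same measure (mean count of at least 5), up to 6 members of each list by CPM and every member highest in pituitary, and the 10 most variable genes. Numbers shared between tissues were checked as pairs: same-numbered libraries deviated together at r over 0.1 in 5 of 12 pairs with hypothalamus, 6 of 12 with thyroid and 5 of 9 with liver, so no pairing was used. Alternatives were DESeq2 1.42.0, its size factors, no scaling, no filter, other depth limits, 2-tissue fits, a replicate block, barcode sets and single libraries left out. Some named genes are not reported here.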

Additional observations from a re-analysis of the deposited data

Results flagged for a closer look

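The liver libraries left out for depth held pituitary hormone counts as larger shares than the livers kept. Gh1 was 2.58% of the counts of liver 6 (38 counts), 3.4% of liver 9 (69 counts) and 0.166% of liver 11 (36 counts), against at most 0.0468% in the livers kept. Prl was 0.247% of liver 9 (5 counts), against at most 0.00244%. The Gh1 counts themselves were within the 22 to 82 counts seen over all 12 livers.

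Scg2 in liver 1 was at 8.26 CPM, far from the next liver at 3.46 CPM, but rests on 1 count. Of 11 groups examined for a library far from the others, it was the 1 found, and chance alone sets apart about 5% of such groups.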

How the results depend on the processing

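Genes highest in pituitary numbered 354 with library totals in place of TMM scaling, 318 of them among the 698, and the genes at least 4-fold higher numbered 125 with no filter on low counts. Genes lowest in pituitary fell to 312 with libraries of at least 500000 counts (3 pituitaries and 3 livers) and to 194 with fits of only the 2 tissues compared, which also left 2607 genes different from liver. Libraries were not taken as pairs, since not every same-numbered pair deviated together. Yet 7 of 9 pituitaries correlated best with the liver of their own number (5 of 12 with hypothalamus, 3 of 12 with thyroid). For liver the median r was 0.111 against -0.00707 for other numbers, a hint from the data and not the design. Vehicle pituitary and liver libraries of one number share a barcode in 12 of 12 cases, which cannot be told apart from a shared animal. With a replicate block 694 genes were highest (682 shared) and 531 lowest (499 shared). Leaving out pituitary 7 or hypothalamus 9 gave 678 to 690 genes highest, 55 to 56 at least 4-fold higher, 501 to 527 lowest, and 4348 to 4410, 4421 to 4439 and 4547 to 4566 genes different from hypothalamus, thyroid and liver. With all vehicle livers kept, the hormone shares in liver became 1.70% for Gh1, 0.614% for Prl, 1.24% for Pomc, 2.17% for Tshb, 0.707% for Lhb and 0.461% for Cga of the pituitary level. Over the pituitary libraries, r, whose unadjusted permutation p then rose above 0.05, was -0.567 (Gh1 and Pomc), 0.536 (Lhb and Fshb), 0.472 (Pomc and Pcsk2) and -0.386 (Gh1 and total) without the 2 farthest libraries, -0.565 (Gh1 and Pomc) and -0.538 (Gh1 and total) without pituitary 7, and 0.538 (Lhb and Fshb) with unscaled CPM.

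Of 5358 values for named genes under an alternative, 5132 kept direction and side of the threshold, 134 lost and 75 gained the call, and 17 turned. Without TMM scaling the log2 fold change became, against hypothalamus, -0.24 for Cpe, -0.22 for Ptprn2, -0.36 for Syt4, -0.18 for Ddit3, -0.0216 for Rpl4, -0.56 for Peg3 and -0.23 for Kdr. Against thyroid it became -0.0207 for Rps6, -0.0423 for Nucb2, -0.10 for Dad1, -0.30 for Rplp0 and -0.30 for Rps18, and against liver 0.42 for Aif1, 0.30 for Tyrobp and 0.79 for Col1a2. With at least 500000 counts it became 0.42 for Rpl32 and -0.17 for Dusp1 against hypothalamus. Apart from the scaling and the number of libraries, the cause was not tested. The receptors Trhr, at 20.7 CPM in pituitary, and Avpr1b, at 8.13 CPM, had too few counts for a test.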
